A study of Homo sapiens with 8 samples.

Results

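Ribosome biogenesis and snoRNP proteins make up a set of 52 human genes, and their mRNA levels were compared between PC3 cells given an siRNA against TRPM2-AS and PC3 cells given a non-specific control siRNA. The members were taken by gene symbol: a probe belonged to the set when the platform annotation named 1 of the 52 genes for it. Probes carried 49 of the 52 symbols, GNL3, WDR43 and EBNA1BP2 had none, and 45 members entered the test among 9629 genes. POLR1A, TAF1D, NPM1 and UTP20 had a probe but were not detected on enough arrays. NPM1 rested on 1 probe, detected on 0 arrays of either group, so no level of its mRNA is read here. PC3 is an established cell line from a human prostate carcinoma, and TRPM2-AS is a long transcript antisense to the ion channel gene TRPM2. Total RNA was taken 48 hours after transfection and hybridised to Illumina bead arrays. There were 4 samples of TRPM2-AS siRNA and 4 of control siRNA, and 3 and 4 arrays of these could be used. Whether the replicates were separate cultures is not stated in the labels, and the p-values then cover no more than the variation among these samples, which may be technical.

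Ribosomes are built in the nucleolus, where RNA polymerase I transcribes a long precursor of most of the ribosomal RNA. Small nucleolar ribonucleoproteins (snoRNPs) guide its modification: H/ACA particles carry a pseudouridine synthase, and C/D particles carry a methyltransferase that acts on ribose. The processome and later assembly factors fold, cut and export the subunits, and this work is heavy in fast-growing carcinoma cells.

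The arrays of a group correlated at 0.984 to 0.993 for TRPM2-AS siRNA and 0.989 to 0.993 for control siRNA, against 0.910 to 0.926 between the groups, across probes, which are not independent replicates. TRPM2-AS siRNA arrays detected 13832 to 14318 probes and control arrays 13163 to 13972. All 7 markers listed for PC3 as an epithelial carcinoma line were detected on every array. Among them 5 passed as lower with TRPM2-AS siRNA by the limma test used throughout, with log2 fold changes of -1.14 for EPCAM, -1.07 for CAV1, -0.51 for KRT18, -0.44 for KRT19 and -0.30 for VIM, and their part in the members' values was not tested. KLK3, KLK2 and FOLH1 of androgen-responsive prostate epithelium were detected on 0 arrays, as were 5 of 6 fibroblast, 4 of 5 leukocyte and 3 of 3 endothelial markers with a probe. The exceptions were TMPRSS2 of prostate epithelium, detected on 3 arrays with a log2 fold change of 0.16 that did not pass, COL1A1 among fibroblast markers, detected on all 7 arrays with a log2 fold change of 0.75 that passed, and CD14 among leukocyte markers, detected on 5 arrays. No probe carried the symbol TRPM2-AS or TRPM2, so the depletion of the target was not analysed here.

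Of the 45 members tested, 16 fell, 5 rose and 24 did not pass (limma, Benjamini-Hochberg adjusted p under 0.05 over all genes). That is 35.6% lower and 11.1% higher, where 28.8% of all genes tested were lower and 28.5% were higher. Each gene is read at its brightest probe, and POLR1D, counted as higher, had -2.09 at its other probe. Fitted changes of at least 2-fold were 5 lower, NHP2, NCL, NOP2, NOLC1 and UBTF, and 1 higher, RRN3. Among all genes, 9.45% were at least 2-fold lower and 9.02% at least 2-fold higher. UBTF and RRN3 were under 2-fold without background correction, and RRN3 was above background on 1 of 4 control arrays. NOP56 had -0.73 at its brightest probe but -1.22 and -1.12 at its other probes. The arrays of the groups did not overlap for 25 of the 45 members, and they did not overlap for 57.8% of all genes. The median log2 fold change of the members was -0.11, against 0.00 for all genes. Counts given below by role group stand beside the 28.8% lower and 28.5% higher of all genes. With so few genes per role group, nothing is read as particular to a group. Quantile normalization gives each array 1 common distribution, so a change shared by most transcripts is removed from these values. In RNA from a whole culture, fewer cells expressing a gene and less of its RNA per cell cannot be told apart.

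**Figure D1:**
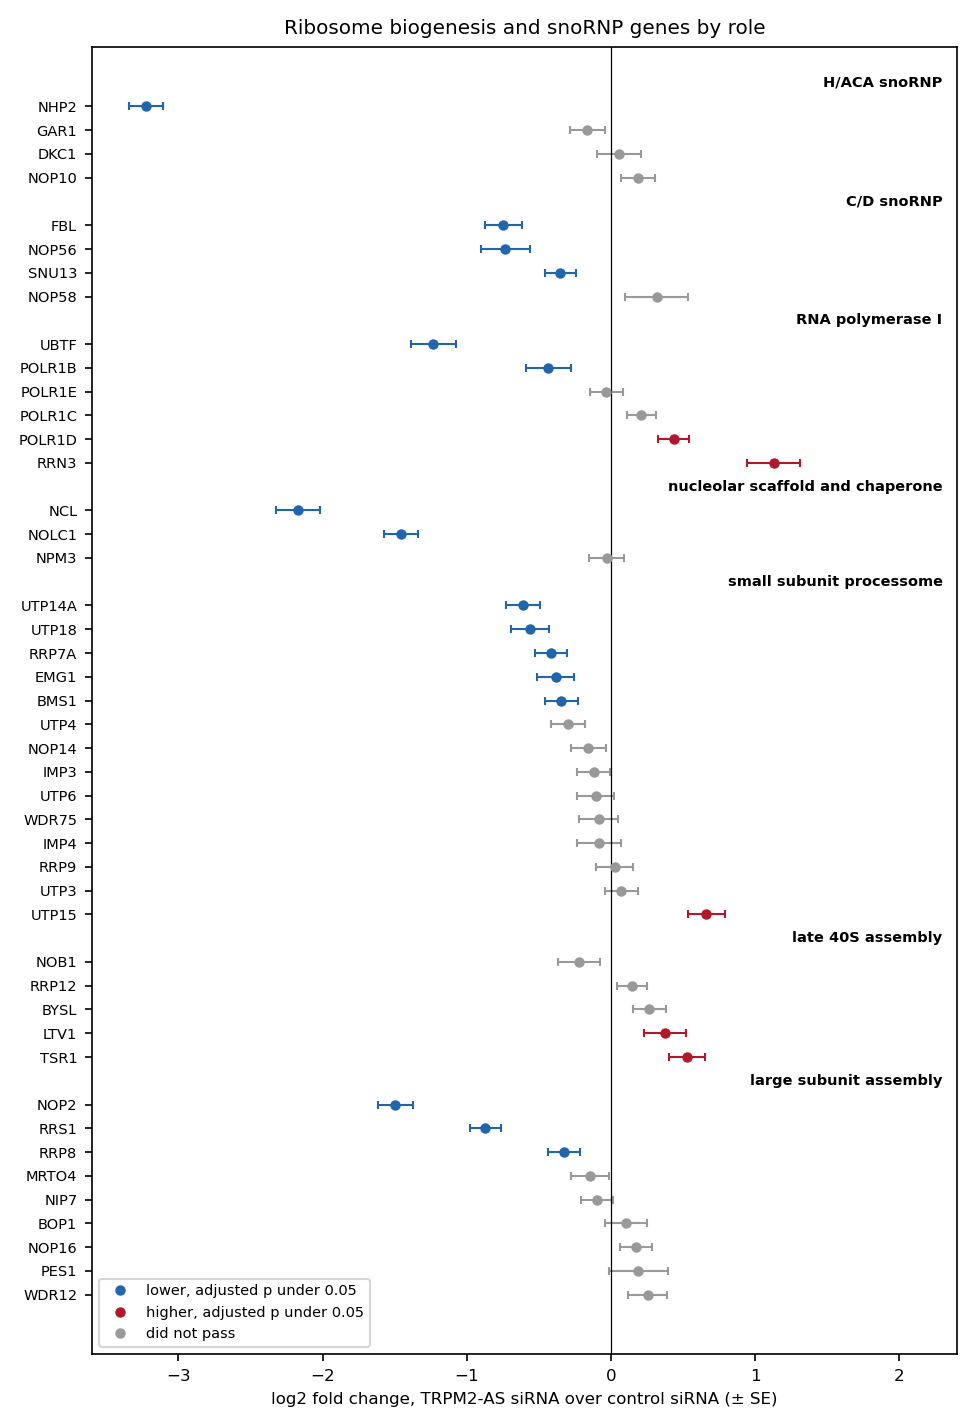
Log2 fold change (± SE) of the 45 tested members, TRPM2-AS siRNA over control siRNA, in 7 role groups, with colours for genes that passed at an adjusted p under 0.05. NHP2 lies farthest to the left at -3.23 and RRN3 farthest to the right at 1.13, a fitted value that is no measured fold.

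Among the 4 proteins of the H/ACA particle, NHP2 fell and the other 3 did not pass. NHP2 is the RNA-binding core protein of the particle, which also forms part of telomerase. Its log2 intensity was 8.47, 8.80 and 8.63 on the TRPM2-AS siRNA arrays, against 11.82, 11.83, 11.80 and 11.98 on the control arrays. All TRPM2-AS siRNA arrays lay far below all control arrays, with no overlap. The log2 fold change was -3.23 ± 0.12 (SE), 9.36-fold lower (limma adjusted p = 1.19e-08), and a second probe for NHP2 gave -3.32. DKC1, the pseudouridine synthase of the particle, ranged from 12.60 to 13.22 with TRPM2-AS siRNA and from 12.72 to 12.80 with control siRNA. Its log2 fold change was 0.06 ± 0.15 (SE), and its groups overlapped. GAR1, which helps the particle release its target, had -0.16 ± 0.12 (SE), and the small core protein NOP10 had 0.19 ± 0.12 (SE), neither past the threshold. The groups of GAR1 overlapped, whereas NOP10 was higher on each TRPM2-AS siRNA array than on each control array.

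The promoters of NHP2, the member with the largest fall, and of its particle partner NOP10, which did not pass, are shown for comparison as RefSeq gives them on GRCh38.p14, from 250 bases before to 50 bases after the first base of the gene, on the minus strand. Capitals mark the E-box CACGTG, the site of MYC and related factors, and the ETS core CCGGAAG or its reverse complement CTTCCGG. The NHP2 window at chr5:178153836-178154135 held neither motif, and the NOP10 window at chr15:34343087-34343386 held an E-box 170 and another 11 bases before the start and an ETS core 42 bases before it.
NHP2: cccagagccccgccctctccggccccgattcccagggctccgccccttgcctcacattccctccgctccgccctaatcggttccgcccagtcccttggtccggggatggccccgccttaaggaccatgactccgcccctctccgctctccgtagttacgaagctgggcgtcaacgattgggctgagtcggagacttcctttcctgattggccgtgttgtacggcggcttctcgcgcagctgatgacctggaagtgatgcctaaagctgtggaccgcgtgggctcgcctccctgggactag
NOP10: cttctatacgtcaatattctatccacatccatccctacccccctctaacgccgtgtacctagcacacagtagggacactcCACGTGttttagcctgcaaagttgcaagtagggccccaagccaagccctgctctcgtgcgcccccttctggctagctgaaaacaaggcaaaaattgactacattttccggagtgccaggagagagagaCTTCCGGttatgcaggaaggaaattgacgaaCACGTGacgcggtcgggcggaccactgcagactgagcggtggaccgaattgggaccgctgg

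The split within the H/ACA proteins was also followed in the authors' processed values, which cover 8 samples. NHP2 had 467, 561, 534 and 509 units of processed intensity in TRPM2-AS siRNA replicates 1 to 4, against 3793, 3735, 3807 and 4238 in control replicates 1 to 4. Log2 NHP2 minus the mean log2 of NOP10, GAR1 and DKC1 was -4.56, -4.00, -4.25 and -4.18 in the TRPM2-AS siRNA samples, against -1.33, -1.41, -1.27 and -1.17 in the control samples. The groups were wide apart, and only their difference is read, since signals of different probes have no common scale. That difference was -2.96, from -4.25 ± 0.23 with TRPM2-AS siRNA and -1.29 ± 0.10 with control siRNA (SD, n = 4 each, exact permutation test, two-sided p = 0.0286, the smallest p that 70 splits allow). NHP2 was picked with its fall already known, so this p describes the samples and is no independent support.

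**Figure D2:**
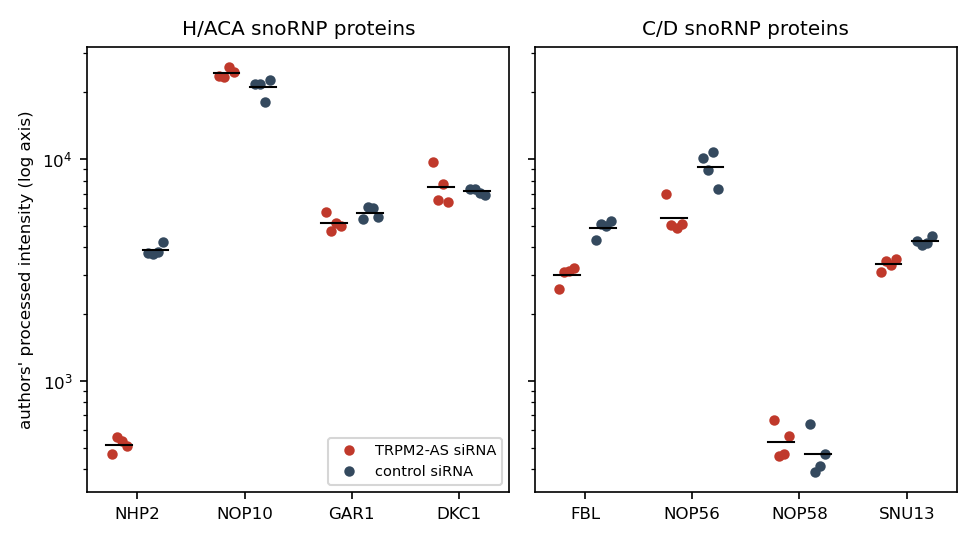
Authors' processed intensity (log axis) of the 4 H/ACA and the 4 C/D snoRNP proteins in 4 TRPM2-AS siRNA and 4 control siRNA samples, with points for samples and bars for the geometric mean. NHP2 is separated widely, at 467 to 561 with TRPM2-AS siRNA and 3735 to 4238 with control siRNA, while DKC1 and GAR1 overlap. NOP10 did not pass but does not overlap, at 23454 to 25975 with TRPM2-AS siRNA and 18148 to 22763 with control siRNA.

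In the C/D particle, 3 of 4 proteins fell and 0 rose. FBL, fibrillarin, is the methyltransferase of the particle. It measured 11.26, 11.52 and 11.59 on the log2 scale with TRPM2-AS siRNA, against 12.01, 12.23, 12.25 and 12.31 with control siRNA. Each TRPM2-AS siRNA array was below each control array. The log2 fold change of FBL was -0.75 ± 0.13 (SE), 1.68-fold lower (limma adjusted p = 0.000441). NOP56, a core protein that pairs with NOP58, fell by 0.73, and its other probes gave -1.22 and -1.12. SNU13, which binds the kink of the guide RNA and also the spliceosomal U4 RNA, fell by 0.35, with -0.87 and -0.43 at its other probes. NOP58 had 0.32 ± 0.22 (SE), did not pass, and ranged from 8.43 to 9.09 with TRPM2-AS siRNA and from 8.11 to 9.02 with control siRNA. The FBL promoter (RefSeq, GRCh38.p14, chr19:39846330-39846629, minus strand) is shown because it holds both motifs in capitals, an ETS core 193 bases before the start and an E-box that begins 6 bases after it.
FBL: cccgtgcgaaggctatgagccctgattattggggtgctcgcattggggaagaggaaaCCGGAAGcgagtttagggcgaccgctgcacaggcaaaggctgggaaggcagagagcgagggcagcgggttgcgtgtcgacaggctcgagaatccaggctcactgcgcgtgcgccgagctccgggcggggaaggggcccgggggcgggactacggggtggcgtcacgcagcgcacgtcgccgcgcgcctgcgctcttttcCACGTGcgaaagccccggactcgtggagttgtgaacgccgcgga

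RNA polymerase I genes, read at the brightest probe of each, had 2 lower, 2 higher and 2 not passing among 6 tested. The 2 higher were RRN3, dim in the controls, and POLR1D, whose direction depended on the probe. These counts are 33.3% lower and 33.3% higher, near the 28.8% and 28.5% of all genes. UBTF, the factor that keeps ribosomal RNA genes open for transcription, had log2 intensities of 7.66, 7.11 and 7.15 with TRPM2-AS siRNA, against 8.54, 8.55, 8.74 and 8.33 with control siRNA. Its groups did not overlap, and TRPM2-AS siRNA array 1 was the nearest to the controls. UBTF had a log2 fold change of -1.23 ± 0.16 (SE), 2.35-fold lower (limma adjusted p = 5.3e-05). It was -0.86 without background correction and -0.84 in the authors' processed values, so that UBTF passed there at under 2-fold. A dimmer probe was above background on all 4 control arrays but, with TRPM2-AS siRNA, on 1 array of 3, so its -1.70 is not a measured fold. RRN3, the initiation factor that brings the polymerase to its promoter, ran the opposite way, at 7.02, 6.79 and 6.44 with TRPM2-AS siRNA, against 6.06, 5.58, 5.47 and 5.37 with control siRNA. These are dim signals, above background on 3 of 3 TRPM2-AS siRNA arrays and on 1 of 4 control arrays, and the groups did not overlap. RRN3 met the detection filter only through its TRPM2-AS siRNA arrays. Its fitted log2 fold change was 1.13 ± 0.18 (SE) (limma adjusted p = 0.000323). With most control arrays at background, this is not a measured fold. The change was 0.48 without background correction and 0.54 in the authors' processed values, which passed at under 2-fold.

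POLR1B, the subunit that shares the catalytic centre of the enzyme, fell by 0.43, though its groups overlapped. POLR1D, a subunit shared with RNA polymerase III, rose by 0.43 at its bright probe, and a dimmer probe had -2.09, so the direction of POLR1D depends on the probe. That dimmer probe, looked at after its value was seen, measured 6.64 to 6.86 on the TRPM2-AS siRNA arrays and 8.75 or more on each control array, with no overlap. POLR1C, also shared with RNA polymerase III, had 0.21 and POLR1E -0.03, neither past the threshold.

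Nucleolar scaffold and chaperone proteins gave 2 falls among 3 tested genes. NCL, nucleolin, binds the ribosomal RNA precursor and is among the most abundant nucleolar proteins. Its log2 intensity was 11.33, 10.68 and 10.86 with TRPM2-AS siRNA, against 13.24, 13.04, 13.12 and 13.12 with control siRNA. No TRPM2-AS siRNA array came near the control arrays, and array 1 was the highest of the 3. NCL had a log2 fold change of -2.17 ± 0.15 (SE), 4.50-fold lower (limma adjusted p = 6.16e-07), and -2.52 at its other probe. NOLC1, a chaperone that moves snoRNPs between Cajal bodies and the nucleolus, measured 8.74, 8.48 and 8.57 with TRPM2-AS siRNA, against 10.19, 10.12, 9.93 and 9.98 with control siRNA. The groups of NOLC1 were fully apart with a narrow spread in each. It had a log2 fold change of -1.46 ± 0.12 (SE), 2.75-fold lower (limma adjusted p = 2.14e-06). NPM3, a chaperone of the nucleoplasmin family, had -0.03 and did not pass. The NCL promoter (RefSeq, GRCh38.p14, chr2:231464435-231464734, minus strand) is shown because NCL had the second-largest fall. It held neither motif.
NCL: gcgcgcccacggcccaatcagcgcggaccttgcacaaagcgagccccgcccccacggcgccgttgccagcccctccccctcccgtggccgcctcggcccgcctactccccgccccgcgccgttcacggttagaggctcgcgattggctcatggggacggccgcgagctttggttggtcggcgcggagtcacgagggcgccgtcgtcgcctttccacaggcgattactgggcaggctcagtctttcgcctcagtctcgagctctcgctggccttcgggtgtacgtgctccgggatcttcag

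**Figure D3:**
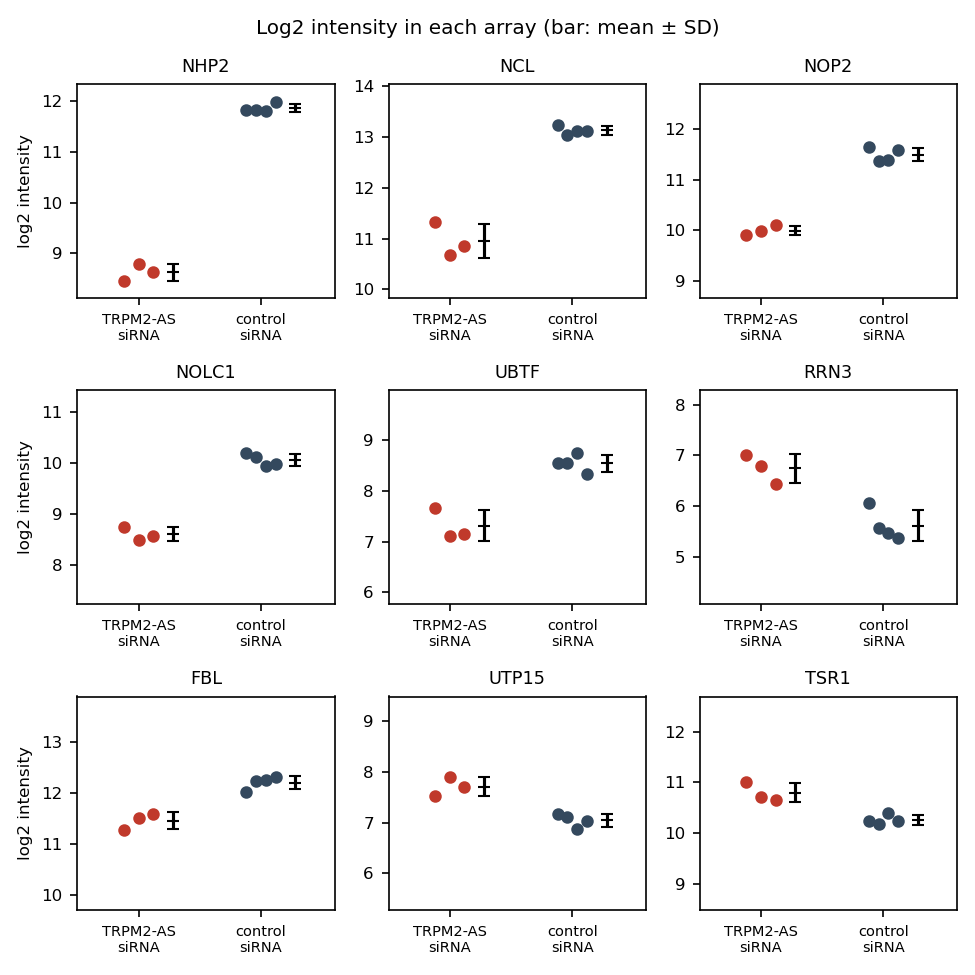
Log2 intensity of 9 members on 3 TRPM2-AS siRNA and 4 control siRNA arrays, with points for arrays and bars for mean ± SD, on axes of like span. The 6 members changed at least 2-fold and FBL, UTP15 and TSR1 show no overlap between the groups.

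The small subunit processome, which folds and cuts the precursor of the small subunit RNA, had 5 lower, 1 higher and 8 not passing among 14 tested members. UTP14A fell by 0.61, UTP18 by 0.56, RRP7A by 0.42, EMG1, a methyltransferase of the small subunit RNA, by 0.38 and the GTPase BMS1 by 0.34. UTP15, of the subcomplex that joins the precursor first, had the largest change of the group and was the one that rose. Its log2 intensity was 7.52, 7.90 and 7.71 with TRPM2-AS siRNA, against 7.17, 7.11, 6.86 and 7.03 with control siRNA. The TRPM2-AS siRNA arrays were all above the controls. UTP15 had a log2 fold change of 0.66 ± 0.13 (SE), 1.58-fold higher (limma adjusted p = 0.00117). UTP4 of the same subcomplex had -0.30 (limma adjusted p = 0.0509), just outside the threshold. Values within 0.16 of 0 on the log2 scale belonged to UTP3, UTP6, WDR75, RRP9, IMP3, IMP4 and NOP14.

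Late 40S assembly factors had 2 members higher and 0 lower among 5 tested. TSR1, which binds the small subunit precursor before its final cut, measured 11.01, 10.72 and 10.65 with TRPM2-AS siRNA, against 10.24, 10.18, 10.41 and 10.24 with control siRNA. The groups of TSR1 did not overlap, and TRPM2-AS siRNA array 1 was the highest. Its log2 fold change was 0.53 ± 0.12 (SE), 1.44-fold higher (limma adjusted p = 0.00378), and 0.39 at a dimmer probe that was above background on 1 of 4 control arrays. LTV1, which is released from the precursor late, rose by 0.38 with overlapping groups. BYSL, a factor needed for nuclear export of the precursor, had 0.27, the export factor RRP12 had 0.15, and NOB1, the nuclease that makes the final cut, had -0.22, none past the threshold.

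Large subunit assembly had 3 lower, 0 higher and 6 not passing among 9 tested. NOP2, which methylates cytosine in the large subunit RNA and is known as a proliferation antigen, had log2 intensities of 9.91, 9.98 and 10.10 with TRPM2-AS siRNA, against 11.64, 11.37, 11.39 and 11.58 with control siRNA. Each group was tight and they lay well apart. NOP2 had a log2 fold change of -1.49 ± 0.12 (SE), 2.82-fold lower (limma adjusted p = 1.68e-06), and -1.09 at another probe, which was above background on 2 of 3 TRPM2-AS siRNA arrays. RRS1, which helps bring the 5S particle into the precursor, fell by 0.87, and RRP8, a methyltransferase of the large subunit RNA, by 0.32. The 3 proteins of the PeBoW complex, BOP1, PES1 and WDR12, had 0.10, 0.19 and 0.25, none past the threshold. MRTO4, NIP7 and NOP16 lay between -0.15 and 0.17 and did not pass. The NOP2 promoter (RefSeq, GRCh38.p14, chr12:6568242-6568541, minus strand) is shown as the large subunit member with the largest change, and its E-box, in capitals, begins 35 bases after the start.
NOP2: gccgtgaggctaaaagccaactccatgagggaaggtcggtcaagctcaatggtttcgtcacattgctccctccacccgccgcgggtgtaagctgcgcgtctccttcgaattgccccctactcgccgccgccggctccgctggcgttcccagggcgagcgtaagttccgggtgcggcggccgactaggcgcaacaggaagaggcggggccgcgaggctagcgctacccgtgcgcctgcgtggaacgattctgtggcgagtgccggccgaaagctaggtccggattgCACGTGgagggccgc

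Several probes reported on 14 members, and in 12 of these all probes had the same sign. Among the 10 called members with several probes, all probes passed in the same direction for 9, the exception being POLR1D. In the authors' processed values all 21 called members kept their direction, 20 passed and 19 had groups apart. POLR1B was the one that did not pass there (limma adjusted p = 0.072). POLR1C, UTP4 and BYSL passed there only. Those values share 7 of their 8 samples with the arrays above, so they are no independent repeat. The 21 members were picked by their calls on those shared samples. Of all 9629 genes, 3002 were called higher and 2960 lower in the authors' values. The share of all genes with groups apart was not computed there, so these counts are not read as particular to the members. The calls of POLR1B, BMS1, EMG1, RRP8 and LTV1, all under 1.5-fold, were lost when single arrays were left out, and those of LTV1, EMG1 and POLR1B under other processing too.

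**Figure D4:**
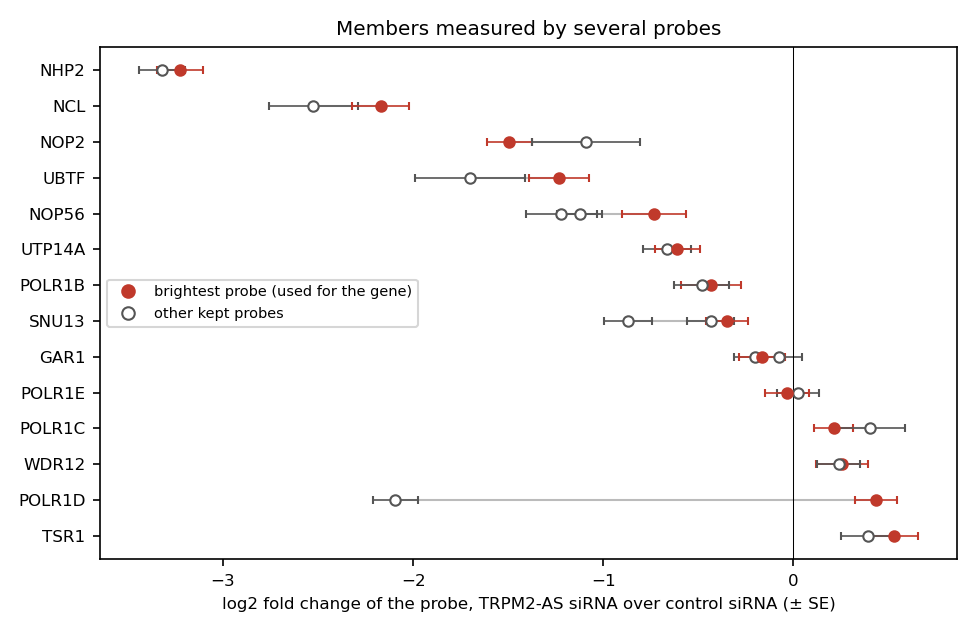
Log2 fold change (± SE) of each kept probe of the 14 members with several, TRPM2-AS siRNA over control siRNA, filled for the brightest probe and open for the others. The probes of NHP2 lie together at -3.23 and -3.32, whereas those of POLR1D lie at 0.43 and -2.09.

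Promoter windows of the same length were searched for both motifs on both strands. RefSeq had a window for 45 of the 52 members, and RRS1, NOLC1, BOP1, RRP12, SNU13, NOP58 and POLR1E had none. The E-box CACGTG, which reads the same on both strands, stood in 16 of the 45 (35.6%), in 10.5% of the windows of tested genes and in 7.43% of all 27305 windows. Within 50 bases of the start it stood in 14 members (31.1%), against 4.36% of tested genes. Members with an E-box included FBL, UTP18, NOP2 and UTP14A, which fell, LTV1, which rose, and NOP10, RRP9, PES1 and MRTO4, which did not pass. Among tested members, 4 of 13 with an E-box and 9 of 25 without were lower, 1 and 4 were higher, and the median log2 fold changes were -0.15 and -0.11. The ETS core stood in 16 of the 45 (35.6%), against 20.2% of tested genes and 10.7% of all windows. Within 50 bases of the start it stood in 8 members (17.8%), against 11.9% of tested genes. Among tested members, 4 of 15 with an ETS core and 9 of 23 without were lower, and 3 and 2 were higher. The median log2 fold changes were 0.03 and -0.15. MYC, the best known factor at such E-boxes, had a log2 fold change of -0.75 (limma adjusted p = 0.000119), and its part in the members' values was not tested.

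Some members carry snoRNA genes inside their own gene, so that their introns yield the guides that snoRNPs use. By RefSeq coordinates, with strand not considered, 8 members contained such genes: DKC1, NOP56, NOP58, TAF1D, NCL, GNL3, WDR43 and TSR1. TAF1D held 8, NOP56 and GNL3 held 5 each, and NOP58 held 4. Of the 5 tested, NCL and NOP56 were lower, TSR1 was higher, and DKC1 and NOP58 did not pass. The arrays' named probes report on the host mRNAs, and the snoRNAs themselves were not analysed here.

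Further genes of the pathway, in 6 lists, divided almost evenly: 31 rose and 29 fell among 123 tested, with a median of -0.04. Of other small subunit processome and 40S factors, 10 rose and 7 fell among 30, led by UTP25 (log2 fold change 2.00), the RNA acetyltransferase NAT10 (-1.14) and NOC4L (0.91). Other large subunit (60S) factors had 13 higher and 8 lower of 46, with SDAD1 at -1.65, the helicase DDX24 at -1.28 and NOP53 at -1.08. Other RNA polymerase I and nucleolar transcription factors had 1 higher and 7 lower of 13, and those with the smallest p were the polymerase subunits POLR1G and POLR1H and the termination factor TTF1. With TRPM2-AS siRNA, POLR1G was above background on 0 of 3 arrays and was at least 2.63-fold lower, taking on each of these arrays the higher of its own and the dimmest detected signal (measured mean log2 intensity 5.38 with TRPM2-AS siRNA and 7.33 with control siRNA, limma adjusted p = 3.96e-06). POLR1H fell by 0.60 and TTF1 by 0.63.

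The snoRNP assembly factors had 1 higher, the chaperone HSP90AA1 (0.41), and 1 lower, the ATPase RUVBL1 (-0.58), of 12 tested. Of RNA exosome and RNase MRP genes, 6 rose and 4 fell among 20, with the RNase MRP subunits POP1 at -2.15, POP5 at -1.56 and RPP40 at 0.63. Both telomerase partners of the H/ACA proteins that could be tested fell, the Cajal body scaffold COIL by 1.05 and WRAP53, which brings telomerase to Cajal bodies, by 0.61. The share called in each list stands beside the 28.8% lower and 28.5% higher of all genes, and with so few genes per list nothing is read as particular to a list.

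**Figure D5:**
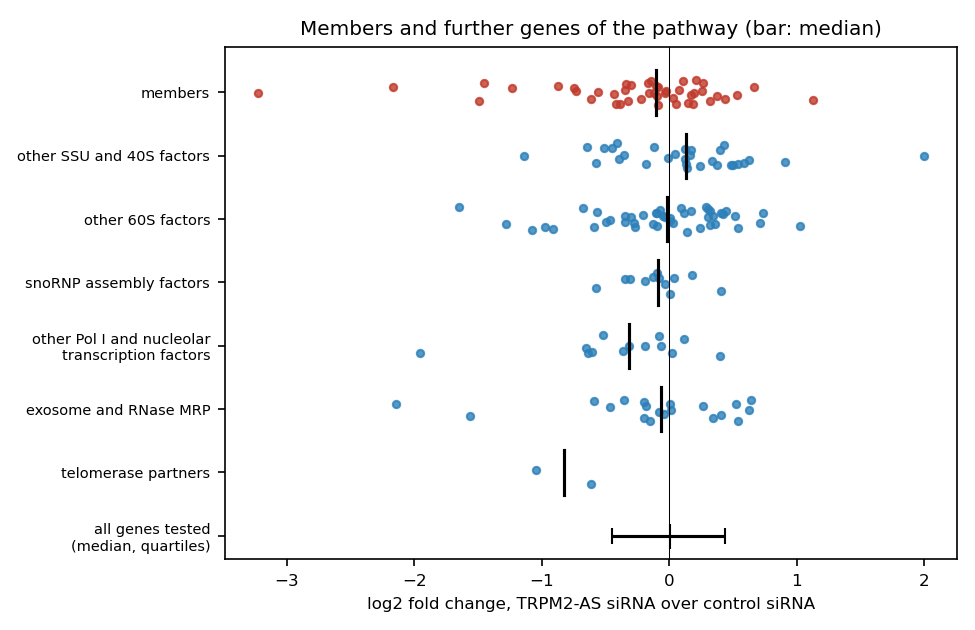
Log2 fold changes, TRPM2-AS siRNA over control siRNA, of the 45 tested members and of 123 further genes in 6 lists, with points for genes and bars for medians, and the median and quartiles of all 9629 genes in the lowest row. POLR1G and RRN3 stand at their fitted values, which are no measured folds. The members' median is -0.11 and NHP2 is the lowest point of all lists at -3.23.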

How the data were processed

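Members and gene lists were chosen with earlier results of these data known. Per the file headers, the authors deposited a non-normalized intensity and a detection p-value for each probe in 8 columns. The other deposited table gives, for all 8 samples, an intensity processed by the authors and left linear. The submitters' processing notes name BeadStudio and limma, with versions and parameters not given in the sources used here. Of the 8 columns, 7 ranked the probes exactly as 1 sample of their own group (Spearman rho of 1). The column SiRNA_2 matched no sample (highest rho 0.832) and was left out, so 3 TRPM2-AS siRNA arrays (columns 1, 3 and 4, which are replicates 1, 2 and 4) were set against 4 control arrays (columns 1 to 4, which are replicates 1, 3, 2 and 4). The text gives arrays by column number and the processed values by replicate number.

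Signals were background corrected by the normal-exponential model from the detection p-values (limma 3.58.1, R 4.3.3, offset 16), log2 transformed and then quantile normalized. A probe was kept where its detection p was under 0.01 on 3 or more of the 7 arrays, which left 14400 of 48798. The annotation gave 28094 probes 1 gene, 13 several and 20691 none. The probe with the highest mean stood for its gene, and genes were tested with lmFit and eBayes, two-sided, with Benjamini-Hochberg adjustment over 9629 genes. Of the members' 75 probes 62 were kept. The number of arrays limits the precision, with a median SE of 0.14. Values on every array are given for members past the threshold and at least 2-fold changed and for the largest change of each role group, and up to 3 genes of each further list with the smallest p are named. The fit was also run on simulated independent normal values, with far fewer changed genes than were called here and without background correction or normalization. That run checks the code of the fit and not the calls. Alternatives covered background, normalization, filter, probe, variance model, array weights, the processed values, the replicate block and left-out arrays.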

Additional observations from a re-analysis of the deposited data

Results flagged for a closer look

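In all, 47 groups of 4 values were checked for a value far from the others, and 2 stood out, where chance gives about 1 in 20. The groups were the 4 control arrays for each of the 45 tested members, and the NHP2 contrast in the TRPM2-AS siRNA and in the control samples. NHP2 measured 11.98 on control array 4, above the other control arrays at 11.80 to 11.83, and all of these lay far above the TRPM2-AS siRNA arrays. MRTO4 measured 10.23 on control array 1, below the other control arrays at 10.51 to 10.54.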

How the results depend on the processing

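Of the 21 called members, 10 kept their call under all 19 alternatives: NHP2, NCL, NOLC1, NOP2, RRS1, FBL, UTP14A, RRP7A, UTP15 and RRN3. Over 7 fits without 1 array each, 4 to 6 members were higher, 12 to 15 lower, the median of the members lay between -0.165 and -0.085 (-0.165 without control array 1) and 4840 to 5246 of all genes were called, against 5515 with all 7 arrays. LTV1 lost its call without control array 1, 3 or 4 or TRPM2-AS siRNA array 1 or 3, POLR1B without control array 1, 2 or 3 or TRPM2-AS siRNA array 1 or 4, BMS1 without control array 1, 2 or 3 or TRPM2-AS siRNA array 4, EMG1 without control array 1 or 3 or TRPM2-AS siRNA array 3, and RRP8 without control array 3 or 4 or TRPM2-AS siRNA array 3 or 4. Processing also ended the calls of LTV1 (adjusted p = 0.072 with 1 median per array, 0.087 with no filter on dim probes and 0.051 with array weights), EMG1 (0.069 with 1 median per array) and POLR1B (0.063 with no filter and 0.072 in the authors' values), all by limma. With all 8 columns under their names, 2 members were higher and 8 lower, the median was -0.17 and 2529 genes were called, and UBTF, NOP56, SNU13, UTP18, TSR1 and POLR1D were among the calls lost. With the mean of a gene's probes POLR1D turned to -0.83. Members near 0 turned in sign without passing. DKC1 was -0.11 with array weights and -0.015 with all 8 columns, and POLR1E was 0.019 and IMP4 0.016 with array weights. RRP9 was -0.015 in the authors' values, with and without the replicate block, and -0.083 with all 8 columns, where NPM3 was 0.0085. Without single arrays DKC1 ranged from -0.14 to 0.17, RRP9 from -0.053 to 0.099, POLR1E from -0.086 to 0.0041, NPM3 from -0.087 to 0.021, IMP4 from -0.18 to 0.055 and PES1 from -0.040 to 0.40. The deviations of same-numbered replicates correlated at 0.36, -0.07, 0.06 and 0.21, and whether their numbers mark pairs was not tested. In the authors' values 7 members were higher and 16 lower without the replicate block, and 9 higher and 17 lower with it. Of all genes, 3002 were higher and 2960 lower without the block, and 3159 higher and 3113 lower with it. The contrast of NHP2 with its H/ACA partners was -2.96 with the replicate block (exact sign-flip test p = 0.125, the smallest that 4 pairs allow) and ranged from -3.04 to -2.85 without single samples. The causes were not tested. Dim signals limit what can be read for RRN3, detected on 1 of 4 control arrays, and for the 4 members not detected widely enough.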

Other observations

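The column of the non-normalized table that matched no sample carries the name of the TRPM2-AS siRNA group. After quantile normalization of all 8 columns together, its log2 intensity was nearer to the mean of the control arrays than to that of the TRPM2-AS siRNA arrays for 28 of the 45 tested members, for 13 of the 21 called members and for all 6 members changed at least 2-fold. The same share over all tested genes was not computed, so these counts are not read as particular to the members. In that column NHP2 measured 11.81, NCL 13.04 and NOP2 11.44. On the same scale the TRPM2-AS siRNA arrays had 8.51 to 8.85 for NHP2, 10.73 to 11.37 for NCL and 9.96 to 10.15 for NOP2, and the control arrays had 11.84 to 12.03, 13.08 to 13.28 and 11.42 to 11.68. Other called members lay nearer to the TRPM2-AS siRNA arrays in that column, among them RRS1 at 10.57, UTP14A at 9.21 and UTP15 at 7.60. For these the TRPM2-AS siRNA arrays had 10.29 to 10.36, 9.05 to 9.25 and 7.57 to 7.95. The control arrays had 11.10 to 11.29, 9.61 to 9.91 and 6.91 to 7.22. The column thus followed neither group throughout, and what it holds was not tested.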
